A study of Mus musculus with 6 samples.

Results

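Prostanoids are short-lived lipid signals that cells make from arachidonic acid and that act on receptors of the same or neighbouring cells. Cyclooxygenases, encoded by Ptgs1 and Ptgs2, turn arachidonic acid into prostaglandin H2, and terminal synthases turn this into prostacyclin (Ptgis) or prostaglandin E2 (Ptges, Ptges2, Ptges3). In bone and around teeth, prostaglandin E2 is known for driving both bone formation and, through its cAMP-coupled receptors, osteoclast formation, and PTH is a known inducer of Ptgs2 in osteoblasts. The 10 genes described here, of 17213 genes in the main count table, are prostanoid synthases and receptors taken by symbol: Ptgis and its receptor Ptgir, the cyclooxygenases, the 3 prostaglandin E2 synthases and the prostaglandin E2 receptors Ptger2, Ptger3 and Ptger4. They were chosen because Ptgis and Ptgir were higher in KO-labelled libraries, so the difference between the groups is given for all 10 as a description, without a test.

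The libraries were made from dental follicle cells of mouse mandibular molars, sorted at postnatal day 8 for the red reporter tdTomato, which marks cells labelled PTHrP+. The 3 libraries labelled KO came from cells with the genotype Pth1r(-/-), a conditional deletion of the receptor of PTH and PTHrP, and the 3 libraries labelled Het from cells with the genotype Pth1r(+/-), so the cells of both groups had a conditional deletion of at least 1 allele. The deletion was started by tamoxifen in both groups, at postnatal day 3 according to the series text and day 8 according to the sample descriptions, and the labels do not name the Cre driver. The conditional alleles delete the gene only in cells where the recombinase was active, and no label says whether libraries came from single or pooled animals. P-values therefore rest on the spread among the samples as labelled, and part of that spread may be technical.

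Total counts were 51804736 to 66147200 per KO-labelled library and 34019925 to 63787622 per Het-labelled library. Pth1r itself was at 961, 608 and 472 CPM (counts scaled by the TMM-adjusted library total) in KO replicates 0, 1 and 2, against 371, 286 and 346 CPM in Het replicates 0, 1 and 2, which goes against the labels, and a whole-gene count cannot tell transcripts with and without the deleted exons apart. Every direction given is therefore that of the labels. Pthlh, the gene of PTHrP, was at 298 to 350 CPM in KO-labelled libraries and 260 to 344 CPM in Het-labelled ones. The 10 mesenchymal markers were all detected in every library and summed to 49876 to 86847 CPM in KO-labelled libraries and 34124 to 69428 CPM in Het-labelled ones, lowest in Het replicate 2, and 7 markers of dental epithelium, which makes enamel proteins, summed to 5060 to 10650 CPM in KO-labelled libraries and 4629 to 8465 CPM in Het-labelled ones. Het replicate 2 stood apart, on a first principal component that held 38.6% of the variance. Xist, which female cells express, was at 0.230 CPM in KO replicate 1 and 0.145 CPM in Het replicate 0, and at 23.7 to 78.4 CPM in the other 4 libraries. Both groups thus held libraries with and nearly without Xist, so the libraries of a group did not all come from the same animals.

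The proximal promoters of 3 genes are shown: that of Ptgir, the gene without a count in any library labelled Het, and, as a contrast in sequence, those of the cyclooxygenase pair Ptgs2 and Ptgs1, of which Ptgs2 is the form induced by cAMP signals and Ptgs1 the form usually expressed constantly. The sequences are RefSeq's (GRCm38.p6, the same assembly as mm10), 5′ to 3′ on the strand of the gene, from 250 bases before to 50 bases after the annotated start. All 3 genes lie on the plus strand, at chr7:16906240-16906539, chr1:150099781-150100080 and chr2:36230176-36230475. Capitals mark matches to the half-site of the cAMP response element (TGACG) or to TATAAA on either strand.
Ptgir: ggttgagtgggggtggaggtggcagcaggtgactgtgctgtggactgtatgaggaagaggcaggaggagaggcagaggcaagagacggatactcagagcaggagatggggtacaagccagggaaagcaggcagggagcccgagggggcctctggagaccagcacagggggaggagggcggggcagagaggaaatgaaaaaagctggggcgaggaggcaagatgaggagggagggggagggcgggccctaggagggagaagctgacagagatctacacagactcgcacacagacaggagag
Ptgs2: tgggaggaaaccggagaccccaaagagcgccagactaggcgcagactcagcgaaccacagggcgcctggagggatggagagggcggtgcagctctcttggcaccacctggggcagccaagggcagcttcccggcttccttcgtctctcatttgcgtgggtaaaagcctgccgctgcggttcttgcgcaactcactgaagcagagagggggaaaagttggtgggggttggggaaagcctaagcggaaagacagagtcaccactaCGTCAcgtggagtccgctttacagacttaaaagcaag
Ptgs1: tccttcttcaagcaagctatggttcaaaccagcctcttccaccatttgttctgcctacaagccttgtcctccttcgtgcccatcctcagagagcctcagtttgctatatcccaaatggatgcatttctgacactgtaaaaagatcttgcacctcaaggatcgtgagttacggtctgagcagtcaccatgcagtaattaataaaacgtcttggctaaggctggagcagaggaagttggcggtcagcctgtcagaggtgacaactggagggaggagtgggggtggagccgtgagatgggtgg

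The Ptgs2 window held 1 half-site, on the minus strand at position 14 after the annotated start, and the Ptgir and Ptgs1 windows held none. The half-site occurs in 20.8% of 32851 RefSeq promoters of the same length, TATAAA in 13.6%, the full element TGACGTCA, which contains the half-site, in 1.79%, the AP-1 motif TGANTCA in 7.81% and the GC box GGGCGG in 35.7%, each searched on both strands. Of the 9 members with a promoter in the table (all but Ptgis), 2 held the half-site (Ptgs2 and Ptges3), none held the full element, TATAAA or the AP-1 motif, and 6 held at least 1 GC box, with 2 in Ptgir, 1 in Ptgs2 and none in Ptgs1. A match or its absence in such a window says only which letters are there.

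Prostacyclin synthase was the one enzyme among the members whose groups stood apart. Ptgis (chromosome 2, 167191805 to 167240604 on the minus strand) was at 68.7, 31.1 and 34.7 CPM in KO replicates 0, 1 and 2, against 16.2, 11.4 and 11.7 CPM in Het replicates 0, 1 and 2. Each library labelled KO was above each library labelled Het, and KO replicate 0 was the highest of the 6. The means were 44.8 ± 20.7 CPM in KO-labelled libraries and 13.1 ± 2.71 CPM in Het-labelled ones (SD, n = 3 each), a log2 fold change of 1.77 ± 0.34 (SE). Leaving out single libraries gave log2 fold changes of 1.35, without KO replicate 0, to 1.98, without KO replicate 1, and 1.70 without Het replicate 2. The exons of Ptgis overlap those of 1110018N20Rik on the other strand by 156 of 2567 bases, and as the strand setting of the counting is not given in the sources used here, reads of that stretch cannot be told apart.

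Ptgir (chromosome 7, 16906490 to 16910905 on the plus strand), the receptor of prostacyclin, which raises cAMP through Gs, was scarce. It had 65, 143 and 22 counts in KO replicates 0, 1 and 2, and 0 counts in each of the 3 libraries labelled Het. On the CPM scale these were 1.07, 2.35 and 0.419 in KO replicates 0, 1 and 2. The KO-labelled mean was 1.28 ± 0.983 CPM (SD, n = 3), at least 57.0-fold higher than the 0.0224 CPM that 3 counts in the whole Het-labelled group would give. KO replicate 1 carried much of that mean, and the bound was 33.1-fold without it. It was 30.5-fold without Het replicate 0, where the same floor of 3 counts rests on fewer reads, and 41.8-fold without Het replicate 2. Reads of amplified low-input libraries without molecular identifiers are not independent molecules, so the floor covers counting error only.

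Those 2 genes were the members whose groups did not overlap, and they are the genes for which the set was chosen. Among all 14632 genes tested, all libraries labelled KO lay above all libraries labelled Het for 5.84% and the reverse held for 4.83%. With edgeR's quasi-likelihood test, 0 of the 14632 genes passed an adjusted p of 0.05 (0%), while 628 genes (4.29%) had an unadjusted p under 0.05. DESeq2 called 87 of 16763 genes (0.519%), and limma-voom called 1 gene. Among the members, 7 were fitted higher and 3 lower, and the median log2 fold change was 0.41, also with Ptgir at its bound, against -0.01 over all genes tested. As this contrast chose the members, nothing is read from these counts.

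**Figure D1:**
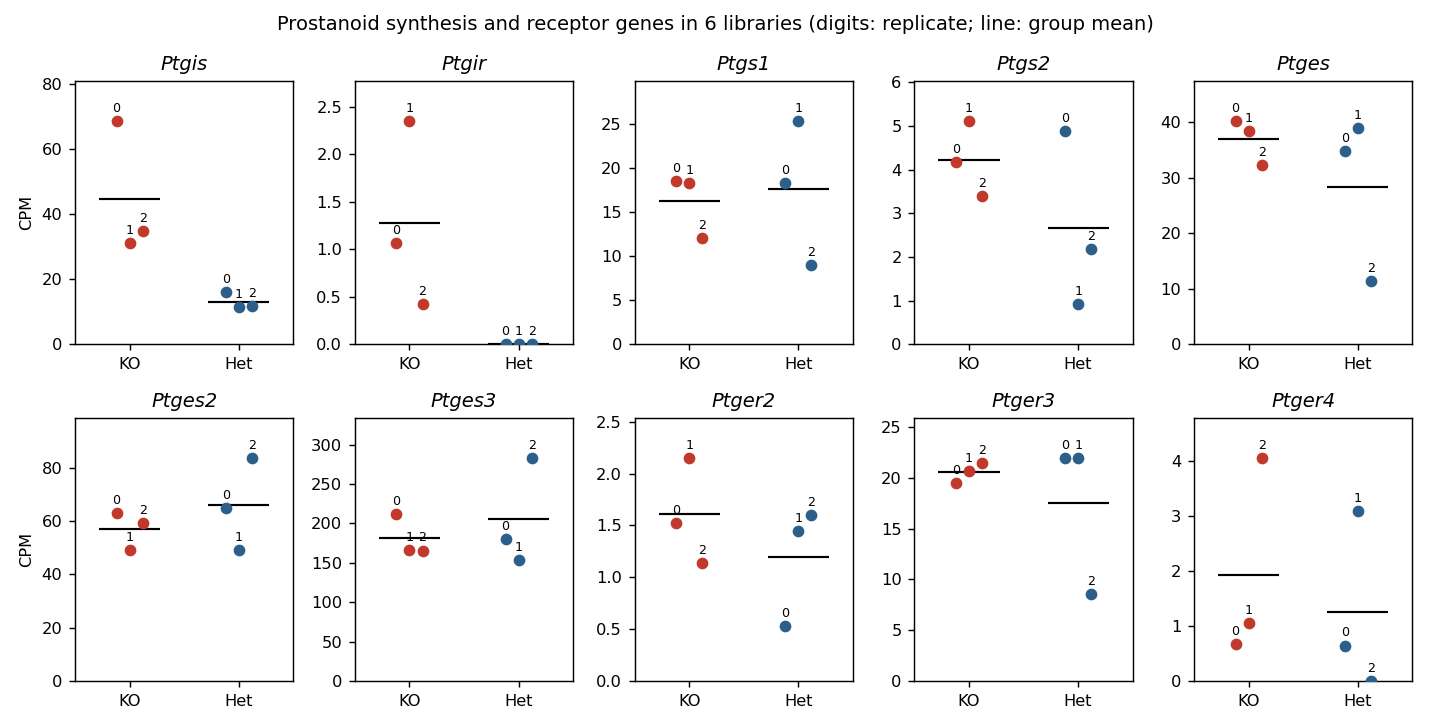
CPM of the 10 genes in each library, with KO-labelled libraries (red) left of Het-labelled ones (blue), digits giving the replicate and lines the group means. The groups were apart for Ptgis and Ptgir and overlapped for the other 8, and Het replicate 2 was the lowest library for Ptgs1, Ptges and Ptger3 and the highest for Ptges2 and Ptges3.

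The cyclooxygenase genes overlapped between the groups. Ptgs1 (chromosome 2, 36230426 to 36252272) was at 18.5, 18.3 and 12.1 CPM in KO replicates 0, 1 and 2, against 18.3, 25.3 and 9.02 CPM in Het replicates 0, 1 and 2, so both the highest and the lowest library were labelled Het. Its log2 fold change of -0.11 ± 0.39 (SE) was 0.07 when KO replicate 2 was left out and 0.25 when Het replicate 1 was, and was -0.42 when Het replicate 2 was. Ptgs2 (chromosome 1, 150100031 to 150108227) was at 4.17, 5.11 and 3.41 CPM in KO replicates 0, 1 and 2, against 4.89, 0.919 and 2.19 CPM in Het replicates 0, 1 and 2. Het replicate 0 lay within the range of KO-labelled libraries and the other 2 libraries labelled Het lay below it. The Ptgs2 log2 fold change of 0.66 ± 0.70 (SE) was 1.45 without Het replicate 0, 0.25 without Het replicate 1 and 0.56 without Het replicate 2.

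Ptgs2 is also an immediate early gene, and other such genes, induced by the handling of cells among many stimuli, are given beside it. Of 18 tested, 15 were fitted higher and 3 lower, the median log2 fold change was 0.43 (-0.01 over all genes tested), and 0 passed edgeR's quasi-likelihood test. By the unadjusted p of that test, 3 of the 18 were under 0.05, against 4.29% of all genes. Their summed level was 27351, 18196 and 26597 CPM in KO replicates 0, 1 and 2, against 20141, 13300 and 20230 CPM in Het replicates 0, 1 and 2. Het replicate 1 was the lowest library for both the sum and Ptgs2, whereas KO replicate 1, the highest for Ptgs2, was the next lowest for the sum. The part of these genes in the Ptgs2 values was not tested.

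The prostaglandin E2 synthases also overlapped. Ptges (chromosome 2, 30889471 to 30929863), the inducible membrane-bound synthase that works with Ptgs2, was at 40.2, 38.5 and 32.3 CPM in KO replicates 0, 1 and 2, against 34.8, 38.9 and 11.4 CPM in Het replicates 0, 1 and 2. Het replicate 2 stood alone at the low end, and the other 5 libraries lay within 32.3 to 40.2 CPM. The log2 fold change of 0.38 ± 0.40 (SE) was 0.01 without Het replicate 2 and 0.67 without Het replicate 1.

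Ptges2 (chromosome 2, 32395896 to 32405772), a second membrane-associated synthase whose part in prostaglandin E2 production is debated, was at 63.1, 49.2 and 59.1 CPM in KO replicates 0, 1 and 2, against 65.1, 49.2 and 83.8 CPM in Het replicates 0, 1 and 2. Ptges3 (chromosome 10, 128058954 to 128077272), better known as a co-chaperone of the heat shock protein Hsp90, was at 212, 166 and 165 CPM in KO replicates 0, 1 and 2, against 180, 154 and 283 CPM in Het replicates 0, 1 and 2. For both genes Het replicate 2 was the highest library, opposite to its place for Ptges. The Ptges2 log2 fold change of -0.21 ± 0.24 (SE) was 0.00 without Het replicate 2. That of Ptges3, -0.18 ± 0.25 (SE), became 0.12 without it. GENCODE lists 1 pseudogene named after Ptges3, and how reads shared with it were counted is not given in the sources used here.

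Of the 3 prostaglandin E2 receptors in the set, the Gi-coupled Ptger3 had the highest level per gene length, with a mean of 10.7 FPKM (fragments scaled for gene length and library size). Ptger3 (chromosome 3, 157566892 to 157645888) was at 19.5, 20.7 and 21.5 CPM in KO replicates 0, 1 and 2, against 21.9, 22.0 and 8.57 CPM in Het replicates 0, 1 and 2. As for Ptges and Ptgs1, Het replicate 2 was the lowest library, and the other 5 lay within 19.5 to 22.0 CPM. The log2 fold change of 0.23 ± 0.36 (SE) became -0.09 without Het replicate 2.

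The Gs-coupled receptors Ptger2 and Ptger4 had low counts that varied from library to library. Ptger2 (chromosome 14, 44988195 to 45003820) had 93, 131 and 60 counts in KO replicates 0, 1 and 2, which were 1.53, 2.15 and 1.14 CPM, against 33, 52 and 57 counts in Het replicates 0, 1 and 2, which were 0.531, 1.45 and 1.60 CPM. The Ptger2 groups overlapped, with a log2 fold change of 0.43 ± 0.86 (SE) that was 0.08 without Het replicate 0, the lowest library, 0.16 without KO replicate 1, the highest, and 0.70 without Het replicate 2. Ptger4 (chromosome 15, 5206661 to 5244187) had 41, 64 and 213 counts in KO replicates 0, 1 and 2, against 40, 111 and 0 counts in Het replicates 0, 1 and 2. A count of 0 in Het replicate 2 allows up to 0.0843 CPM at a floor of 3 counts per library. One library of each group, KO replicate 2 at 4.05 CPM and Het replicate 1 at 3.09 CPM, held most of the Ptger4 reads, and the log2 fold change of 0.63 ± 1.51 (SE) became -0.53 without KO replicate 2, 2.55 without Het replicate 1 and 0.03 without Het replicate 2. Exons of Ptger4 overlap those of Ttc33 and Gm15937 on the other strand by 1097 of 6648 bases, and those of Ptger2 overlap antisense genes by 390 of 5193 bases, so some of these reads cannot be told apart.

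Levels of different genes were compared per gene length, in the authors' FPKM. The order of the means over the 6 libraries was Ptges3 (90.1 ± 22.1 FPKM), Ptges2 (38.7 ± 11.9), Ptgis (18.1 ± 13.1), Ptger3 (10.7 ± 3.08), Ptges (8.47 ± 2.87), Ptgs1 (5.72 ± 2.14), Ptgs2 (0.720 ± 0.435), Ptger4 (0.633 ± 0.622), Ptger2 (0.355 ± 0.182) and Ptgir (0.186 ± 0.261) (SD, n = 6 each). The FPKM ranges over libraries overlapped between all neighbours in this order except Ptgs1 and Ptgs2, so the set fell into 6 genes above 1 FPKM on average and 4 below. The third place of Ptgis rests on the KO-labelled libraries, where it averaged 27.99 ± 11.6 FPKM and Ptger3 11.5 ± 0.550 FPKM, whereas in Het-labelled libraries Ptgis averaged 8.27 ± 1.64 FPKM and Ptger3 9.92 ± 4.65 FPKM (SD, n = 3 each). With CPM per kilobase of all annotated exons in place of FPKM, the same 6 genes led, but Ptges2 came to 12.2, beside Ptgis at 11.3, and Ptger3 to 3.34, behind Ptges at 8.31 and Ptgs1 at 4.35. Ptgs1 exceeded Ptgs2 in every library, by 5.07 to 7.98 times in KO-labelled libraries and 5.73 to 38.9 times in Het-labelled ones. The ratio of Ptgis to Ptges FPKM was 3.87, 1.80 and 3.10 in KO replicates 0, 1 and 2, against 1.07, 0.645 and 2.97 in Het replicates 0, 1 and 2. The ratio in Het replicate 2 lay within the KO range, and Ptges was at 2.84 FPKM there, its lowest value.

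**Figure D2:**
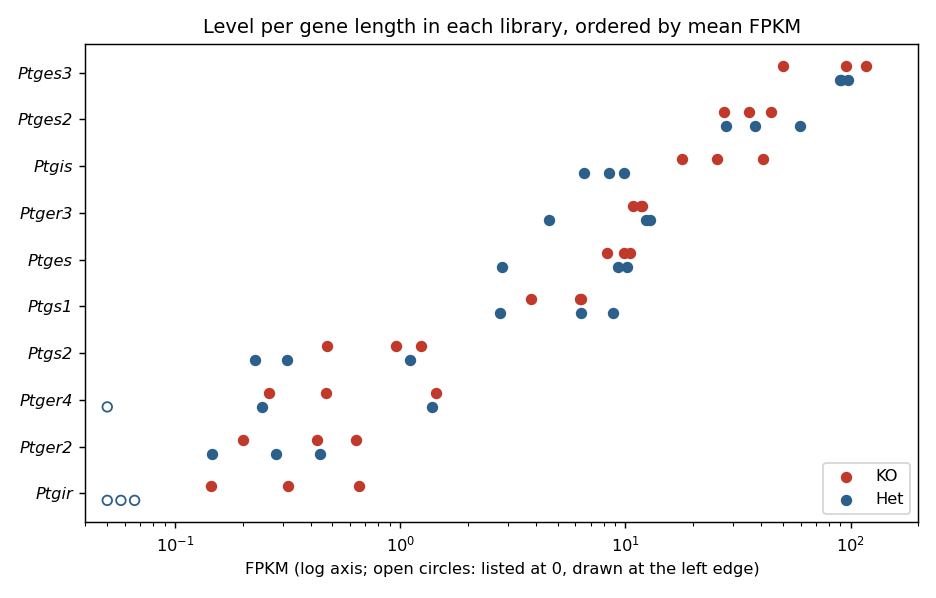
FPKM of each gene in each library on a log axis, with genes ordered by their mean and KO-labelled libraries (red) drawn above Het-labelled ones (blue); open circles are values listed at 0. Ptges3 lies at the top and Ptgir at the bottom, and a gap without overlap separates Ptgs1 from Ptgs2.

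The 2 units did not relate to each other in the same way in all libraries, which bears on any FPKM value above. Relative to the median over libraries, Ptges3 had 0.549 times the FPKM per CPM in KO replicate 2 and 0.580 times in Het replicate 2, against 0.991 to 1.07 times in the other 4 libraries. Ptgs2 had 0.612 and 0.629 times and Ptger2 0.633 and 0.630 times in KO replicate 2 and Het replicate 2, while Ptgis had 1.23 and 1.21 times and Ptges2 1.30 and 1.24 times. Ptges3 was thus lowest in KO replicate 2 by FPKM, at 49.9, whereas by CPM, at 165, that library lay beside KO replicate 1. Over 11009 genes with at least 100 counts in every library, the FPKM per CPM of both libraries numbered 2 lay outside the range of the other 4 for 86.6%, against 53.9% for the libraries numbered 1 and 29.0% for those numbered 0. No label describes a step that the libraries numbered 2 share.

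**Figure D3:**
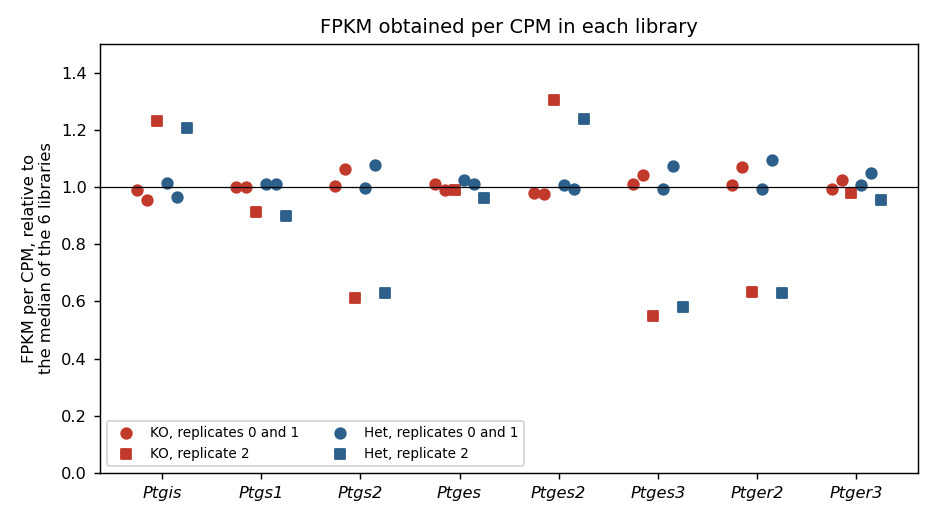
FPKM obtained per CPM for 8 genes in each library, relative to the gene's median over the 6 libraries; squares are the libraries numbered 2 and circles the others, red for KO and blue for Het. Both squares sit together, at 0.549 to 0.633 for Ptgs2, Ptges3 and Ptger2 and at 1.21 to 1.30 for Ptgis and Ptges2.

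Ptgis is known from blood vessels, where endothelium and smooth muscle make prostacyclin, so markers of those cells are given beside it. In bulk RNA, fewer cells of a type and less RNA per cell cannot be told apart. The 9 smooth muscle and pericyte markers summed to 966, 922 and 763 CPM in KO replicates 0, 1 and 2, against 1070, 1125 and 1215 CPM in Het replicates 0, 1 and 2. The sum was mostly Acta2, and it was lower in each KO-labelled library than in any Het-labelled one. Among KO-labelled libraries it was highest in replicate 0, as Ptgis was, but KO replicate 2 had a lower sum and more Ptgis than KO replicate 1. Among Het-labelled libraries, replicate 0 had the lowest sum and the most Ptgis. Of the 8 tested, 3 were fitted higher and 5 lower, with 0 called by edgeR. In the same test 3 of the 8 had an unadjusted p under 0.05, against 4.29% of all genes. Acta2, the smooth muscle actin, was at 487 to 569 CPM in KO-labelled libraries and 708 to 814 CPM in Het-labelled ones. Tagln was at 83.1 to 95.5 CPM and 146 to 210 CPM. The 5 fitted lower were Acta2, Tagln, Cnn1, Myh11 and Notch3 (log2 fold changes of -0.50, -0.94, -1.02, -0.83 and -0.07). The 3 fitted higher were Pdgfrb, Cspg4 and Rgs5 (0.67, 0.85 and 0.43). Pdgfrb was at 82.2 to 193 CPM in KO-labelled libraries and 61.9 to 121 CPM in Het-labelled ones. Rgs5 rested on KO replicate 1, at 18.6 CPM. It was at 2.54 and 2.57 CPM in KO replicates 0 and 2, and at 2.92 to 8.17 CPM in Het-labelled libraries. The 8 endothelial markers summed to 14.2, 19.8 and 20.7 CPM in KO replicates 0, 1 and 2, against 18.3, 27.1 and 48.9 CPM in Het replicates 0, 1 and 2, with 2 fitted higher and 6 lower and 0 called by edgeR. Het replicate 2, the library that stood apart, had the highest sum of both lists. The part of these cells in the Ptgis values was not tested.

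Ptgir is also expressed by macrophages and platelets. The 11 macrophage and leukocyte markers summed to 28.5, 101 and 160 CPM in KO replicates 0, 1 and 2, against 23.5, 93.3 and 55.1 CPM in Het replicates 0, 1 and 2, and 10 of 11 were fitted higher, with 0 called by edgeR. Lyz2, which neutrophils also express, made up most of these sums in all libraries but Het replicate 2, with 63.3 CPM in KO replicate 1 and 72.7 CPM in Het replicate 1. Adgre1 (older symbol Emr1), which marks macrophages more narrowly, was at 0.0657, 2.94 and 1.64 CPM in KO replicates 0, 1 and 2, against 0, 0.278 and 0 CPM in Het replicates 0, 1 and 2. KO replicate 1 was thus the highest library for both Adgre1 and Ptgir. By the sum of all 11 markers KO replicate 2 was the highest, and it had the lowest Ptgir of the KO-labelled libraries, 0.419 CPM. Between KO replicate 1 and Het replicate 1, Itgam was at 5.83 and 0 CPM, C1qb at 8.46 and 1.42 CPM and Csf1r at 5.39 and 2.90 CPM. C1qa was at 2.63 and 1.42 CPM, Cd14 at 3.76 and 2.65 CPM and Cd68 at 3.20 and 2.98 CPM in these libraries. The rest of the list went the other way, as Lyz2 did. Ptprc was at 1.48 and 3.23 CPM, Fcer1g at 1.38 and 2.70 CPM and Tyrobp at 2.83 and 3.01 CPM. C1qa had no counts in Het replicate 0. The 5 platelet and megakaryocyte markers in the table summed to 7.42 to 9.56 CPM in KO-labelled libraries and 7.67 to 13.9 CPM in Het-labelled ones. Mast cell markers other than Kit were at 0.852 CPM or less in every library. The 5 neutrophil markers summed to 40.6, 59.3 and 114 CPM in KO replicates 0, 1 and 2, against 3.44, 382 and 110 CPM in Het replicates 0, 1 and 2. Of the 4 tested, 3 were fitted higher and 1, Mpo, lower, with 0 called by edgeR. In that test 1 of the 4 had an unadjusted p under 0.05, against 4.29% of all genes. Mpo was at 228 and 52.4 CPM and Elane, not tested, at 66.2 and 33.8 CPM in Het replicates 1 and 2. In KO-labelled libraries Mpo was at 1.07 CPM or less and Elane at 0.0985 CPM or less. The part of blood cells in the Ptgir counts was not tested.

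**Figure D4:**
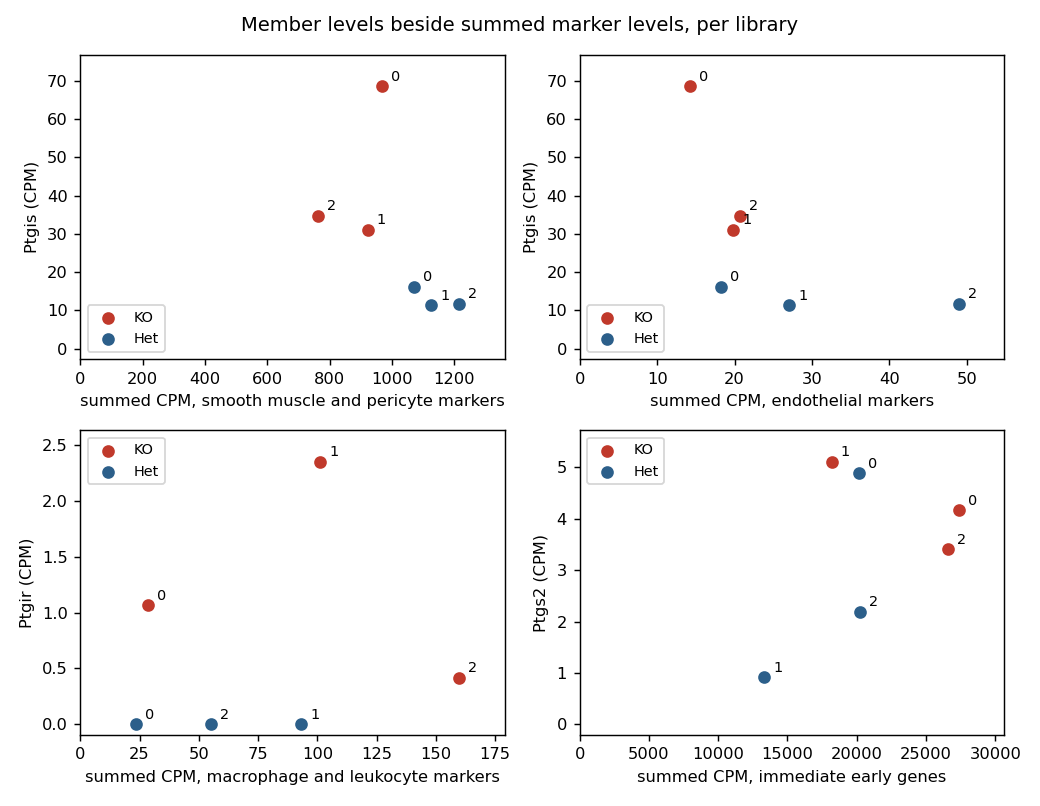
Member levels (CPM, vertical axes) against the summed CPM of marker lists (horizontal axes) in each library, red for KO and blue for Het, with digits giving the replicate. The smooth muscle sums were 763 to 966 CPM in KO-labelled libraries and 1070 to 1215 CPM in Het-labelled ones. Within the KO-labelled libraries replicate 0 had the highest sum and the most Ptgis, whereas within the Het-labelled ones replicate 0 had the lowest sum and the most Ptgis. Ptgir was highest in KO replicate 1 and at 0 in Het replicate 1, and the macrophage and leukocyte sums of those libraries, 101 and 93.3 CPM, were mostly Lyz2.

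The rest of the prostanoid pathway was described from 30 further genes listed by function, of which 29 were in the count table and 20 passed the filter on low counts. Of these 20, 7 were fitted higher and 13 lower, and their median log2 fold change was -0.18, beside -0.01 over all 14632 genes. None passed edgeR's quasi-likelihood test (0% of all genes), and 0 had an unadjusted p under 0.05, against 4.29% of all genes. DESeq2 called 1 of the 29 in the count table, Akr1c18, against 0.519% of all genes.

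Phospholipase genes, whose products release arachidonic acid, were fitted in both directions. Pla2g4a, the cytosolic phospholipase that supplies the cyclooxygenases and whose gene lies 138.7 kb from Ptgs2, was at 33.1, 22.7 and 26.0 CPM in KO replicates 0, 1 and 2, against 25.6, 17.5 and 30.8 CPM in Het replicates 0, 1 and 2. Pla2g4c was at 2.92, 3.34 and 3.22 CPM in KO replicates 0, 1 and 2, against 3.91, 14.6 and 4.02 CPM in Het replicates 0, 1 and 2, with a log2 fold change of -1.25 ± 0.61 (SE) and an adjusted p of 0.976 in edgeR. Its groups did not overlap, but Het replicate 1 alone was far from the others. Pla2g6 had a fitted log2 fold change of 0.44, Pla2g12a of -0.47 and Pla2g4b of -0.71, each with an adjusted p of 0.976 in edgeR, and exons of Pla2g4b overlap those of Gm28042 and Sptbn5.

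Among the other terminal synthases, Tbxas1 and Akr1c18 resembled Ptgir in having at most 1 count per library labelled Het. Tbxas1, the thromboxane synthase of platelets and macrophages, had 12, 109 and 32 counts in KO replicates 0, 1 and 2, and 0 counts in each of the 3 libraries labelled Het. Its KO-labelled mean was at least 38.6-fold higher than 3 counts in the whole Het-labelled group would give, 17.96-fold without KO replicate 1 and 20.6-fold without Het replicate 0. Akr1c18, which acts on prostaglandins and progesterone in the mouse, had 131, 188 and 9 counts in KO replicates 0, 1 and 2, against 1, 0 and 0 counts in Het replicates 0, 1 and 2. The ratio of its normalised totals was 252, with an exact 95% counting interval of 44.8 to 9965 that leaves out the spread between libraries, and reads shared with other genes of the Akr1c family could be split between them. Both were under the filter of the edgeR fit and had no test there. Like Ptgir, both were highest in KO replicate 1.

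Ptgds, the lipocalin-type prostaglandin D synthase, was detected in Het replicate 2 only, at 0.646 CPM. Hpgds, the haematopoietic form, was at 0.969, 2.73 and 2.21 CPM in KO replicates 0, 1 and 2, against 1.13, 1.06 and 0.0843 CPM in Het replicates 0, 1 and 2, and did not pass (adjusted p = 0.976 in edgeR). Cbr1, Akr1b8 and Fam213b, which act on prostaglandin carbonyl or peroxide groups, had log2 fold changes of -0.19, -0.30 and -0.15, each with an adjusted p of 0.981 in edgeR. Akr1b3 was at 0.197 CPM or less in every library, but its FPKM averaged 2.04 ± 1.52 (SD, n = 6). By FPKM it thus lay above Ptgs2, which averaged 0.720, so its low counts do not show that it was absent. The cause of this disagreement between the units was not tested.

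The receptors with the highest levels per gene length were no members: Tbxa2r averaged 28.8 ± 6.28 FPKM and Ptgfr 26.9 ± 9.69 FPKM (SD, n = 6 each), with ranges that overlapped. Ptgfr, the receptor of prostaglandin F2 alpha, was at 152, 99.3 and 96.7 CPM in KO replicates 0, 1 and 2, against 178, 150 and 164 CPM in Het replicates 0, 1 and 2. Only KO replicate 0 reached into the Het range, and the log2 fold change of -0.50 ± 0.22 (SE) had an adjusted p of 0.976 in edgeR. Tbxa2r, the thromboxane receptor, was at 42.7, 47.7 and 35.3 CPM in KO replicates 0, 1 and 2, against 42.2, 58.4 and 24.6 CPM in Het replicates 0, 1 and 2, with a log2 fold change of 0.01. Ppard, a nuclear receptor that prostacyclin can activate, had a log2 fold change of -0.27 ± 0.59 (SE) and an adjusted p of 0.981 in edgeR. The prostaglandin D2 receptors were scarce: Ptgdr, 128.8 kb from Ptger2, had 7 counts in KO replicate 0 and none elsewhere, and Ptgdr2, under its older symbol Gpr44, had 14 and 35 counts in KO replicates 0 and 1 and none elsewhere.

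Of the genes that end the signal, Hpgd, the dehydrogenase that inactivates prostaglandins, was at 29.0, 31.9 and 15.6 CPM in KO replicates 0, 1 and 2, against 8.52, 10.2 and 21.5 CPM in Het replicates 0, 1 and 2. KO replicate 2 lay below Het replicate 2, so the groups overlapped, and the log2 fold change of 0.93 ± 0.42 (SE) had an adjusted p of 0.976 in edgeR. Zadh2, a prostaglandin reductase, had a log2 fold change of 0.19, and the uptake transporter Slco2a1 was at 12.8 to 48.6 CPM in KO-labelled libraries and 25.7 to 49.7 CPM in Het-labelled ones.

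**Figure D5:**
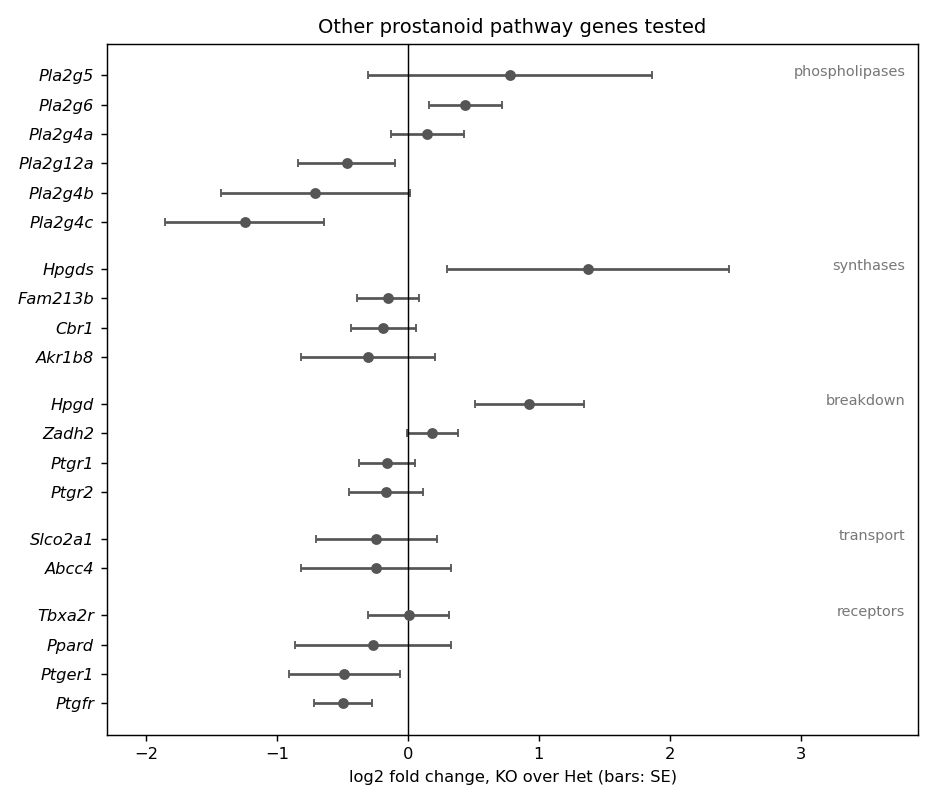
Log2 fold change, KO over Het, of the 20 other prostanoid pathway genes tested, grouped by function, with bars of 1 standard error. The 13 values below 0 and 7 above run from -1.25 for Pla2g4c to 1.37 for Hpgds, and none passed edgeR's test.

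The signalling proteins that prostanoid receptors use were divided evenly by direction. Of 22 effector genes tested, 11 were fitted higher and 11 lower, the median log2 fold change was 0.01, and 0 passed edgeR's test. Gnas, which encodes Gs, was at 2080, 1814 and 1914 CPM in KO replicates 0, 1 and 2, against 2137, 1838 and 1920 CPM in Het replicates 0, 1 and 2.

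The genes whose log2 CPM followed Ptgis or Ptgir most closely over the 6 libraries were listed among 10427 named genes whose log2 CPM averaged 2 or more. For Ptgis they were Msto1 (Pearson r = 0.993, Spearman rho = 1), Adrbk1, a kinase of activated G protein-coupled receptors (0.991, 1), Galnt1 (0.990, 0.943), Eef2k (0.983, 0.886) and Mybbp1a (0.981, 0.943). For Ptgir they were Ick (r = 0.995, rho = 0.941), Rin3 (0.981, 0.941), Dtx4 (0.981, 0.941), Arhgef26 (0.973, 0.941) and the immunoregulatory glycoprotein gene Cd200 (0.972, 0.880). These are the extremes of 10427 comparisons over 6 points that share libraries and the group difference, so they are a description only. The size of the difference varied among them: Msto1 was at 39.6 ± 1.91 CPM in KO-labelled libraries and 33.7 ± 1.08 CPM in Het-labelled ones, and Arhgef26 at 40.8 ± 6.13 and 11.6 ± 2.21 CPM (SD, n = 3 each).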

How the data were processed

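RNA of sorted dental follicle cells was copied and amplified by SMART-Seq chemistry before Nextera XT library preparation, per the labels' protocols. The authors worked on the mm10 genome with Bowtie2 2.2.1, Cuffdiff, Cufflinks, DESeq2, FastQC, HTSeq and TopHat2 2.0.13, per the submitters' processing notes, which give no role for each tool. The main table holds raw counts per gene symbol as deposited. A second deposited table holds estimated counts, also called expected counts, for 23107 symbols, rounded here before use. Over the 60 values of the members, 1 differed between the tables by more than 0.5 counts. FPKM values were used as the authors deposited them. Scaled and log-transformed copies of the counts were not used. 

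Counts were tested in R 4.3.3 with edgeR 4.0.16 (quasi-likelihood test, TMM scaling, default filter, two-sided, Benjamini-Hochberg over all 14632 genes tested), using the 3 libraries labelled KO and the 3 labelled Het. CPM used TMM-scaled library sizes. Levels per length were also computed as CPM per kilobase of exons. DESeq2 1.42.0 and limma 3.58.1 served as alternatives, and the scripts were tested on simulated data. Standard errors were derived from the F statistic. Positions are from GENCODE M21 (mm10). The members and gene lists were chosen with earlier results of these data known. Named were all members, Pth1r and Pthlh, all receptors and synthases of the wider list except Ptger1, whose result is not reported here, with the 6 others of smallest unadjusted p, the 5 genes most like Ptgis and Ptgir, and the 3 highest genes of other lists at most. Pla2g4a, Slco2a1, Adgre1, C1qa, C1qb, Itgam, Ptprc, Fcer1g, Tyrobp, Cd68, Gp1ba, Cspg4, Rgs5, Cnn1, Myh11 and Notch3 were named after their values were seen.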

Additional observations from a re-analysis of the deposited data

How the results depend on the processing

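No setting moved the median log2 fold change of all genes by more than 0.1. The number of genes called was 0 with edgeR, 87 with DESeq2, 1 with limma-voom and 1 in each of the 3 limma fits on log2(FPKM + pseudocount); leaving out single libraries gave 0 to 1, with the 1 gene found without Het replicate 0. DESeq2 called 1 of the other pathway genes. With the minimum FPKM, 3 members were fitted higher of 6 that could be fitted, beside 7 of 10; a stricter count filter left out Ptgir. The causes were not tested. Over 155 member fold changes under alternatives, 7 had the other sign and 3, all of Ptgir, moved by more than 1 SD. With the replicate block, 0 genes were called, Ptgis had a log2 fold change of 1.70 and Ptgir a fitted one of 8.93, which is no bound. The numbers were not taken as a pairing. The deviations of same-numbered libraries correlated at 0.17, 0.07 and 0.07, although each KO library correlated best with the Het library of its own number. FPKM per CPM also set both libraries of a number apart from the other 4, for 29.0% (number 0), 53.9% (1) and 86.6% (2) of 11009 genes. Both are hints from the data and not the design, and no label says what a number marks. Depth limits Ptgir, Ptger2 and Ptger4, where 3 counts per library correspond to 0.0482 to 0.0843 CPM.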

Other observations

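Arachidonic acid also feeds the lipoxygenases, which make leukotrienes and hydroxylated fatty acids. Of 13 such genes listed, 10 were tested, 7 were fitted higher and 3 lower in KO-labelled libraries, and the median log2 fold change was 0.59, beside -0.01 over all genes tested. In edgeR's quasi-likelihood test 0 passed and 1 of the 10 had an unadjusted p under 0.05, against 4.29% of all genes. Alox15, a lipoxygenase of macrophages and epithelia, was at 7.57, 4.62 and 44.3 CPM in KO replicates 0, 1 and 2, against 0.0643, 3.51 and 0.562 CPM in Het replicates 0, 1 and 2. The groups did not overlap, KO replicate 2 was far above the rest, and the log2 fold change of 3.79 ± 1.30 (SE) had an adjusted p of 0.976 in edgeR. Alox5, which starts leukotriene synthesis in leukocytes, was at 1.61, 3.73 and 9.53 CPM in KO replicates 0, 1 and 2, against 0, 6.74 and 4.66 CPM in Het replicates 0, 1 and 2. Lta4h, which makes leukotriene B4, was at 118, 93.8 and 133 CPM in KO replicates 0, 1 and 2, against 114, 94.6 and 103 CPM in Het replicates 0, 1 and 2. KO replicate 2 was the highest library for all 3 genes, and it also had the highest sum of macrophage and leukocyte markers, 160 CPM; the part of those cells was not tested.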
